A study of Homo sapiens with 5 samples.

Results

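The genes described here write and erase N6-methyladenosine (m6A), a methyl mark on adenosines of mRNA. The 10 members were chosen by name, whatever their level: the methyltransferases METTL3, METTL14 and METTL16, the adaptor subunits WTAP, VIRMA, RBM15, ZC3H13 and CBLL1, and the demethylases FTO and ALKBH5. All 10 were found, each as a single row of the 12497 gene rows of the series, and all were listed in every library. The cells were MDA-MB-231, an established human breast cancer line of the triple-negative, mesenchymal kind. By the labels, 1 library comes from cells transfected with a Smart Silencer against the long noncoding RNA LY6E-DT (si-LY6E-DT), 1 from its negative control (si-NC) and 1 from cells transfected with siRNA against HNRNPC (labelled si-HNRNPC). The labels conflict on this: the treatment text shared by all 5 libraries names the targets and the silencing reagents in crossed order, whereas each library's own title and description pair target and reagent as given here, and these were followed. The other 2 come from RNA immunoprecipitation (RIP) on magnetic beads, namely the lysate before precipitation (RIP input) and the RNA recovered with an HNRNPC antibody (immunoprecipitate). An IgG library was not analysed here, so background binding to the beads has no measured value. By its design text the study profiles gene expression under the knockdowns and in the HNRNPC RIP. Each group is 1 library, so no value below has an SD, a p-value or a replicate check.

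Most m6A is placed in the nucleus by a complex in which METTL3 transfers the methyl group and METTL14 holds the RNA. WTAP anchors this pair to the adaptor subunits, which steer it to its sites and keep it in the nucleus. METTL16 works outside the complex, on a small nuclear RNA of the spliceosome and on hairpins of the MAT2A mRNA, and FTO and ALKBH5 remove methyl groups by oxidation. HNRNPC is a nuclear protein that binds runs of U, and it is known as an indirect m6A reader because the mark can unfold a hairpin and expose such a run.

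Values are FPKM, fragments scaled by gene length and by library total, so levels can be compared between genes and a ratio within a library does not depend on its scaling. Between 11306 and 11755 genes were listed per library, FPKM summed to between 157407 (immunoprecipitate) and 272563 (RIP input), and read depth cannot be told from the files. Of that sum, mRNAs of the mitochondrial genome took 29.8% in the RIP input and 7.20% to 9.92% in the other 4 libraries. HNRNPC itself stood at 52.2 FPKM in si-NC, against 48.8 where the label names its knockdown, so set against si-NC its level goes against that label. In the RIP input it was at 67.4 FPKM, and the labelled knockdown was lower than that by a log2 change of −0.46. The lowest HNRNPC level of the 5 libraries was 40.1 FPKM, in si-LY6E-DT (log2 change −0.37 against si-NC, beside −0.10 in the library labelled si-HNRNPC). Which library received which reagent cannot be told apart from these values. LY6E-DT was not measured here. Of 6 genes that mark mesenchymal MDA-MB-231 cells, 5 were listed in every library, among them VIM at 157 to 538 FPKM. Of 6 genes that are low or absent in such cells, ESR1, PGR and CDH1 were listed in none. The other 3 were listed in every library, with ERBB2 at 1.77 to 8.61 FPKM, EPCAM at 0.853 to 3.30 and GATA3 at 0.449 to 2.23.

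To show the kind of letters HNRNPC binds, the longest run of U in the 3′ UTR is printed for FTO, METTL16 and METTL3. FTO and METTL16 had the highest ratio of FPKM between immunoprecipitate and input, and METTL3 was the only member lower there at 2-fold. Each window has 30 bases and is written as DNA in the sense direction, with the run in capitals, from the GENCODE 29 transcripts on GRCh38. The METTL16 window lies at chr17:2418178-2418207 on the minus strand. The FTO window lies at chr16:54113805-54113834 on the plus strand and the METTL3 window at chr14:21498175-21498204 on the minus strand. The run has 15 bases in FTO, 8 in METTL16 and 3 in METTL3. These members were chosen by their recovery, and the length of the run did not order the members by it. Over the whole transcript the longest run had 25 bases in WTAP, 9 in METTL14 and 8 in ALKBH5, none of which was enriched at 2-fold, and 5 in RBM15, which was. Binding at these windows was not measured here.
METTL16: gtgtgtgtgtaTTTTTTTTcctggagagag
FTO: tcttttcTTTTTTTTTTTTTTTgagacaca
METTL3: ctgaagagtgataTTTgtacaatagctttc

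The levels of the members spanned a wide range within each library. With 1 library per group, there is no spread by which neighbours in the order could be told apart. ALKBH5 (ENSG00000091542.8_2; chromosome 17, 18183078 to 18209954, plus strand) was the most abundant member in all 5 libraries. FTO (ENSG00000140718.20_3; chromosome 16, 53701692 to 54158512, plus strand) was the least abundant in si-NC, si-LY6E-DT and the RIP input, and METTL14 in the other 2. All positions of genes are those of GENCODE 29 on GRCh38.

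METTL3 (ENSG00000165819.11_3; chromosome 14, 21498133 to 21511375, minus strand) was at 6.94 FPKM (si-NC), 5.75 (si-LY6E-DT), 7.31 (labelled si-HNRNPC), 5.86 (RIP input) and 2.16 (immunoprecipitate). The first 4 libraries lay close together and the immunoprecipitate stood below them. METTL14 (ENSG00000145388.14_2; chromosome 4, 118685368 to 118715433, plus strand) was at 2.77, 2.75, 1.32, 1.64 and 1.76 FPKM in the same order. It was thus listed below METTL3, its partner in the complex, in every library. METTL16 (ENSG00000127804.12_3; chromosome 17, 2405562 to 2511891, minus strand) was at 2.99, 1.60, 2.60, 0.850 and 6.31 FPKM in that order, lowest in the RIP input and highest in the immunoprecipitate.

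Among the adaptor subunits, WTAP (ENSG00000146457.14_2; chromosome 6, 159725585 to 159756319, plus strand) was the steadiest, at 11.3 FPKM with si-NC, 12.3 with si-LY6E-DT, 12.7 under the si-HNRNPC label, 14.5 before precipitation and 14.9 after it. Its highest value was 1.32 times its lowest, a range that 99.5% of 10249 genes with a mean of at least 1 FPKM equalled or exceeded. ZC3H13 (ENSG00000123200.16_4; chromosome 13, 45954465 to 46052759, minus strand), a zinc finger protein that keeps the complex in the nucleus, was at 13.8, 13.4, 7.56, 9.29 and 8.02 FPKM in the same order. VIRMA (ENSG00000164944.11_3; chromosome 8, 94487693 to 94553529, minus strand), the large scaffold of the complex, was at 5.80, 5.32, 6.21, 4.73 and 10.6 FPKM. Only the immunoprecipitate stood apart for VIRMA.

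RBM15 (ENSG00000162775.14_2; chromosome 1, 110338506 to 110346681, plus strand) brings the complex to U-rich RNA and is known for its part in X inactivation. It was at 7.21 FPKM with si-NC, 6.06 with si-LY6E-DT, 4.58 under the si-HNRNPC label, 3.19 before precipitation and 19.1 after it. CBLL1 (ENSG00000105879.11_2; chromosome 7, 107743697 to 107761667, plus strand), a RING finger protein also called HAKAI, was at 6.01, 6.16, 1.64, 3.85 and 5.36 FPKM in that order. The library labelled si-HNRNPC was the low one for CBLL1.

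The demethylases lay far apart in level. FTO was at 0.849 FPKM with si-NC, 0.622 with si-LY6E-DT, 1.43 under the si-HNRNPC label, 0.348 before precipitation and 3.71 after it. Its level exceeded or equalled that of only 3.26% of listed genes in the RIP input but 50.2% in the immunoprecipitate. ALKBH5 was at 24.5, 26.0, 62.9, 58.8 and 65.0 FPKM in the same order. Both cell libraries of the LY6E-DT experiment were thus low for ALKBH5 and the other 3 libraries high. For FTO the highest value was 10.6 times the lowest, against a median of 5.05 over the 10249 genes.

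**Figure D1:**
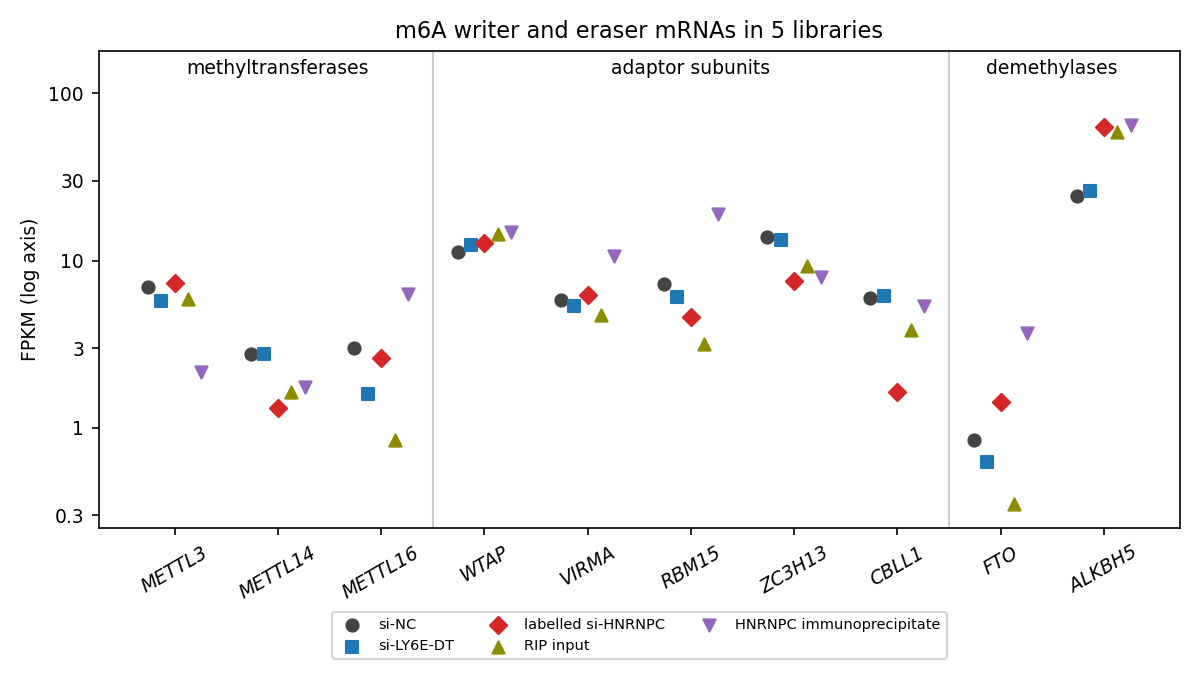
FPKM of the 10 members (log axis) in the 5 libraries, 1 point per library, with methyltransferases, adaptor subunits and demethylases from left to right. ALKBH5 sits at 24.5 to 65.0 FPKM and FTO at 0.348 to 3.71; RBM15, METTL16 and FTO are highest in the immunoprecipitate and METTL3 lowest there.

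Ratios between members set partners against each other within a library. METTL14 was at 0.400 of METTL3 with si-NC, 0.478 with si-LY6E-DT, 0.181 under the si-HNRNPC label, 0.280 before precipitation and 0.818 after it. The pair was therefore closest to equal in the immunoprecipitate, where METTL3 was low. WTAP stood at 1.63 times METTL3 with si-NC, 2.15 with si-LY6E-DT, 1.74 under the si-HNRNPC label, 2.47 before precipitation and 6.91 after it. ALKBH5 was 28.8 times FTO with si-NC, 41.9 with si-LY6E-DT, 43.9 under the si-HNRNPC label, 169 before precipitation and 17.5 after it. The ALKBH5 to FTO ratio rests on FTO levels mostly under 1 FPKM, and with 1 FPKM added to both genes it ran from 13.8 in si-NC to 44.4 in the RIP input.

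**Figure D2:**
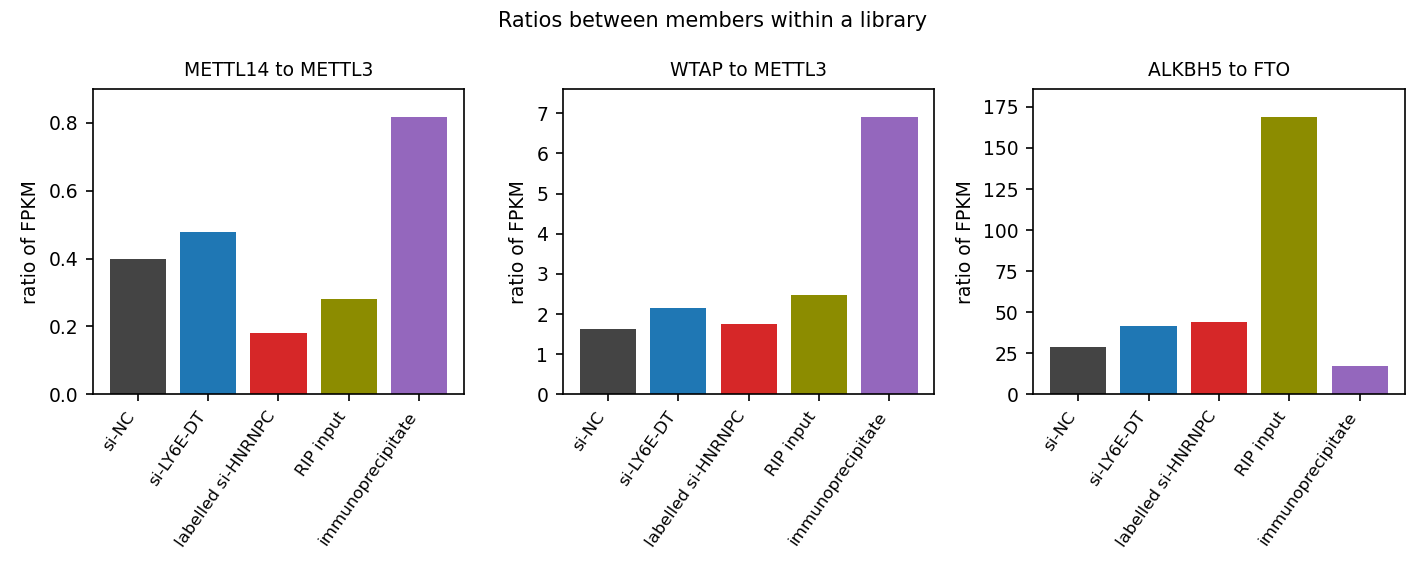
Ratio of FPKM between 2 members (linear axis from 0) in each library, for METTL14 to METTL3, WTAP to METTL3 and ALKBH5 to FTO. The immunoprecipitate has the highest METTL14 to METTL3 ratio (0.818) and WTAP to METTL3 ratio (6.91), and the RIP input the highest ALKBH5 to FTO ratio (169).

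The first comparison asks what changed when LY6E-DT was targeted. Here and below, a change is log2((FPKM + 1)/(control FPKM + 1)) for genes that both files list and whose mean is at least 1 FPKM, and a gene rose or fell when its change was 2-fold or more on that scale, which is a rule of size and no test. None of the 9 members that passed the filter rose or fell in si-LY6E-DT against si-NC, where 1.66% of 10473 genes rose and 0.888% fell (2.55% in all). A count of 0 in 9 genes is near that background share. METTL16 had the largest difference, from 2.99 to 1.60 FPKM, a log2 change of −0.62. Of the genes tested, 3.06% had a change as low or lower. METTL3 differed by −0.23, RBM15 by −0.22, VIRMA by −0.11 and ZC3H13 by −0.05 on the log2 scale. METTL14, at −0.01, and CBLL1, at 0.03 (−0.01 with centring and −0.03 with quantile normalization), were nearly level, and WTAP and ALKBH5 stood at 0.12 and 0.09. The median change was −0.05 over the 9 members and 0.04 over all genes tested. FTO, at 0.622 against 0.849 FPKM, lay under the filter.

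The second comparison asks what changed when HNRNPC was targeted, with the reservation that the HNRNPC level, set against si-NC, goes against the label. The library labelled si-HNRNPC had more ALKBH5 and less CBLL1 mRNA than si-NC, and no other member reached 2-fold. ALKBH5 rose from 24.5 to 62.9 FPKM, a log2 change of 1.33. CBLL1 fell from 6.01 to 1.64 FPKM, or by 1.41 on the log2 scale. These are 2 of 10 members, where 12.4% of 10247 genes rose and 9.44% fell (21.9% in all), so the share is near the background. ZC3H13 (−0.79), METTL14 (−0.70) and RBM15 (−0.56) were lower without reaching 2-fold, and FTO (0.40) was higher. FTO passed the filter here through the library labelled si-HNRNPC, where its level was above 1 FPKM. METTL3 (0.07), VIRMA (0.08), WTAP (0.16) and METTL16 (−0.15) stood near 0, and the sign of METTL3, VIRMA and WTAP turned with the rescaling given below. The median was −0.04 over the members and 0.04 over all genes. Of the genes that changed, 56.9% rose, and 42.1% with each library rescaled without mitochondrial, ribosomal protein and its 20 highest genes, a setting that moved the median of all genes from 0.04 to −0.12.

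The RIP input comes from cells with no knockdown in its label, and it held nearly the same amount of ALKBH5 mRNA (58.8 FPKM) as the library labelled si-HNRNPC. With the input as its control, no member reached 2-fold in that library, where 9.11% of 10185 genes were higher and 4.03% lower (13.1% in all). ALKBH5 then differed by 0.10 on the log2 scale, METTL14 by −0.19, ZC3H13 by −0.27 and CBLL1 by −0.88. METTL16 stood at 0.96, just under 2-fold, and RBM15 turned from −0.56 against si-NC to 0.41 against the RIP input. Other genes separated the same libraries. Of 5 tested markers of the line, 3 were lower at 2-fold in the library labelled si-HNRNPC than in si-NC, where 9.44% of all genes were lower. The matrix gene FN1 was at 82.7 FPKM in si-NC, 7.82 in that library and 6.97 in the RIP input. CAV1 was at 101, 43.4 and 8.12 FPKM in the same order, and CD44 at 35.9, 17.1 and 21.1. The macrophage and lysosome marker CD68 was at 4.86 FPKM in si-NC, 74.8 in the library labelled si-HNRNPC and 63.3 in the RIP input. Among the other leukocyte markers, PTPRC and CD3E were listed in no library, and CD14 and LYZ were listed only in the RIP pair, at up to 1.13 FPKM. The summed leukocyte markers ranged from 4.86 to 74.8 FPKM over the libraries, and the part of CD68 or FN1 differences in the ALKBH5 and CBLL1 changes was not tested. The 6 fibroblast markers summed to at most 3.82 FPKM in any library.

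The library sets themselves were compared through si-NC and the RIP input, both from cells with no named knockdown. Of the 9 members that passed the filter, METTL16 was higher in si-NC (2.99 against 0.850 FPKM, log2 1.11) and ALKBH5 lower (24.5 against 58.8 FPKM, log2 −1.23), where 14.2% of 10264 genes were higher and 10.4% lower (24.6% in all). RBM15, at 7.21 against 3.19 FPKM, stood just under 2-fold with 0.97. METTL16 passed the filter here through si-NC, where it was high, since it was under 1 FPKM in the RIP input. METTL14, CBLL1 and ZC3H13 were 0.52 to 0.53 higher in si-NC, WTAP was at −0.33, and METTL3 (0.21) and VIRMA (0.25) were closer. METTL16 fell just short of 2-fold with centring on the median change of all genes (0.995) and with quantile normalization (0.96), and RBM15 passed it with the rescaling described above (1.01). This comparison shares si-NC with the first 2 comparisons and the RIP input with the next one.

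**Figure D3:**
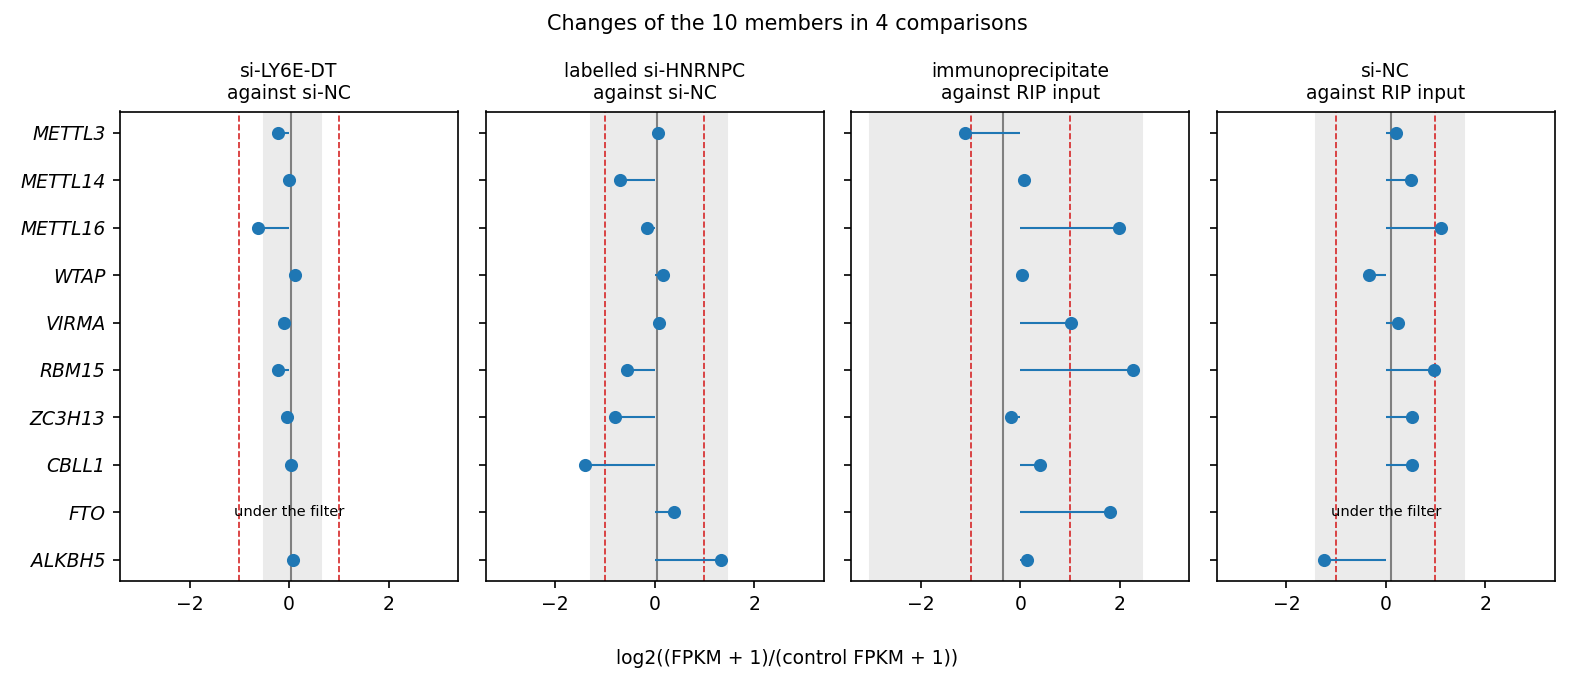
log2((FPKM + 1)/(control FPKM + 1)) of the 10 members in 4 comparisons, 1 point per gene with no replicates; the grey band spans the 5th to 95th percentile of all genes tested, the grey line is their median and the red dashed lines mark 2-fold. Against si-NC, ALKBH5 and CBLL1 pass 2-fold in the library labelled si-HNRNPC, and 5 members do so in the immunoprecipitate against its input.

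The immunoprecipitate against its input asks which mRNAs were recovered with HNRNPC. The adaptor subunits RBM15 and VIRMA were higher there at 2-fold, and METTL3 was lower. METTL16 and FTO were also higher at 2-fold, but they passed the filter only through the immunoprecipitate. In this comparison 24.2% of 10284 genes were higher and 36.9% lower at 2-fold, together 61.0%, beside 4 members higher and 1 lower of 10. The count of members higher includes METTL16 and FTO, so it was not read as a share above the background. The members' share was below the background for lower and not above it for both together. RBM15 rose from 3.19 to 19.1 FPKM, a log2 change of 2.26 that 6.78% of genes reached. METTL16 rose from 0.850 to 6.31 FPKM (log2 1.98), reached by 9.53% of genes. FTO rose from 0.348 to 3.71 FPKM (log2 1.80), reached by 11.2%. VIRMA rose from 4.73 to 10.6 FPKM (log2 1.02), reached by 23.8%.

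METTL16 and FTO passed the filter only through the immunoprecipitate, since both were under 1 FPKM in the input. The added 1 FPKM shrinks changes of such low genes, and the plain ratio of FPKM was 7.43 for METTL16 and 10.6 for FTO against 5.99 for RBM15 and 2.25 for VIRMA. Depth is unknown, so the error of a ratio on so low an input cannot be given. Over the settings described below, the log2 change ran from 0.70 to 3.09 for FTO and from 0.95 to 2.76 for METTL16. METTL3 fell from 5.86 to 2.16 FPKM, a log2 change of −1.12, and 34.2% of genes had a change as low or lower. CBLL1 (0.39), ALKBH5 (0.14), METTL14 (0.07), WTAP (0.04) and ZC3H13 (−0.19, turning to 0.15 with centring) did not reach 2-fold. The median change was 0.27 over the 10 members and −0.34 over all genes tested. Relative to that median, obtained by centring, METTL3 stood at −0.78 and was no longer called, while RBM15 stood at 2.61, METTL16 at 2.33, FTO at 2.15 and VIRMA at 1.37. Of all genes past 2-fold, 39.6% were higher as deposited, 50.8% with centring and 49.7% with quantile normalization.

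**Figure D4:**
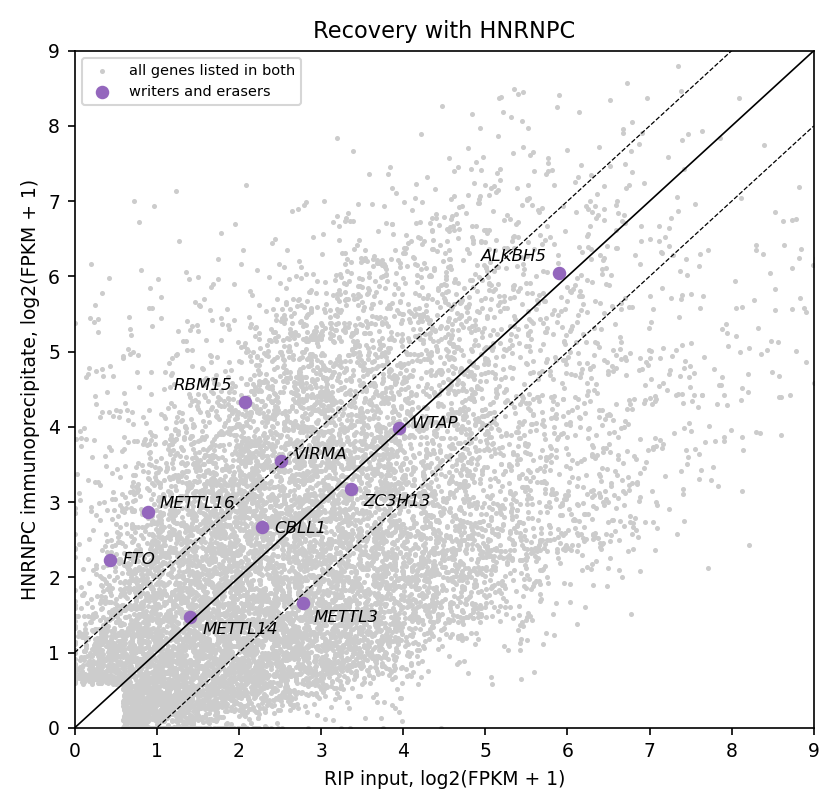
log2(FPKM + 1) in the immunoprecipitate against the RIP input, with 11716 genes in grey (39 with higher values lie outside the axes) and the 10 members in purple; the solid line marks equal levels and the dashed lines 2-fold. RBM15, METTL16 and FTO lie above the upper dashed line, VIRMA on it, METTL3 below the lower one and ALKBH5, WTAP and METTL14 near equality.

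The transcripts of the members differ in their runs of U. The motif searched was TTTTT or longer in the sense strand of 1 coding transcript per gene, with each unbroken run counted once, and 85.6% of 12296 transcripts held it. METTL3 held none in its 2015 bases, and its longest run had 4. RBM15 held 0.707 runs per kb, ZC3H13 2.0, METTL16 2.28, FTO 2.29, VIRMA 2.60, CBLL1 2.93, METTL14 4.20, ALKBH5 4.37 and WTAP 6.29, where the median of all transcripts was 1.61. Some of these values hang on the transcript chosen, since they ran from 1.23 to 6.64 over 5 coding transcripts of WTAP, from 0.583 to 1.78 over 5 of RBM15 and from 0 to 3.27 over 9 of FTO. Across 10223 genes, which are not independent and share both libraries, the change between immunoprecipitate and input was higher with more of these runs (Spearman's rho 0.62) and lower with higher GC content (−0.54). It was also higher with transcript length (0.55) and with the span of the gene (0.45). Comparisons without precipitation had correlations with some of these features too, but none had a like rise with runs of U. In si-LY6E-DT against si-NC, rho had the opposite sign, at 0.37 with GC content and −0.28 with runs of U. Under the si-HNRNPC label, with si-NC as control, rho was 0.31 with GC content and −0.15 with runs of U. It was −0.30 there with transcript length and −0.27 with span. For si-NC against the RIP input, rho was 0.31 with transcript length and 0.24 with span. In that comparison it was near 0 with GC content (−0.07) and with runs of U (0.01).

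Set beside genes with like runs, the members split, with METTL16 and FTO left aside. Of 1978 genes with more than 0 and up to 1 run per kb, the median change was −1.31, and 0.758% were as high as RBM15 or higher. The gene spans 8.18 kb, against a median of 32.3 kb, and RBM15 belongs to this class by the transcript chosen, since another of its transcripts held 1.78. METTL3 was not unusual among 1289 genes without such a run, of which the median was −2.05 and 83.2% were lower at 2-fold. In the class of 2 to 3 runs per kb, 8.36% of 1962 genes were as high as METTL16, 10.4% as high as FTO, 29.8% as high as VIRMA and 49.6% as high as CBLL1. METTL16 and FTO passed the filter only through the immunoprecipitate, so their places in this class were not read as results. METTL14, WTAP and ALKBH5 were on the low side of 1257 genes with more than 4 runs per kb. There the median was 1.38, and 81.5%, 81.9% and 80.3% of genes were at least as high, although WTAP belongs to that class only by the transcript chosen. FTO has the largest span of the members, 457 kb, and a transcript of 11766 bases with a 3′ UTR of 10026. Reads from introns were not examined here.

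**Figure D5:**
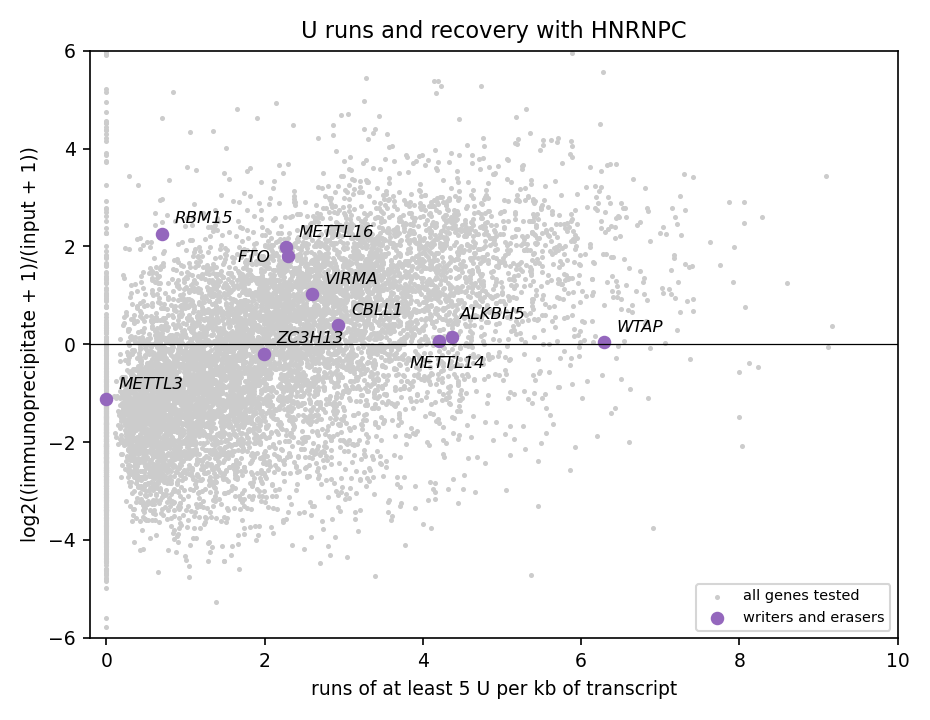
Change between immunoprecipitate and input, log2((FPKM + 1)/(input FPKM + 1)), against runs of at least 5 U per kb of 1 coding transcript per gene, with 10222 genes in grey (1 lies outside the axes) and the 10 members in purple. RBM15 stands high for its 0.707 runs per kb and WTAP, ALKBH5 and METTL14 stand near 0 at more than 4 runs per kb.

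Exons on the opposite strand overlap 6 members, and strand use in the counting is not given in the sources used here. ALKBH5 shares 11.2% of its annotated exon bases with an antisense gene, METTL3 6.58% with TOX4, CBLL1 6.08% with an antisense gene, WTAP 4.64% with SOD2, RBM15 3.75% with RBM15-AS1 and FTO 0.842% with a pseudogene. Whether reads in those stretches were told apart between the partners is therefore not known. TOX4 was at 10.4 FPKM before and 5.84 after precipitation, and SOD2 at 2.69 and 14.3. No member shares exons with another gene on its own strand.

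Other genes that place or take part in m6A chemistry were described as lists. None of 6 further RNA methyltransferases and partners rose or fell in si-LY6E-DT, where 2.55% of all genes did. In the library labelled si-HNRNPC, PCIF1, which methylates the adenosine next to the cap, rose from 10.9 to 23.3 FPKM. The other 5 did not reach 2-fold there, a size that 21.9% of all genes reached. In the immunoprecipitate, METTL4, which acts on a small nuclear RNA, rose from 3.14 to 14.3 FPKM. TRMT112 fell from 77.7 to 11.4 FPKM and its partner METTL5, the m6A enzyme of 18S rRNA, from 29.8 to 4.10. PCIF1 fell from 17.7 to 3.82 FPKM there. In all, 1 of these 6 genes rose and 3 fell, where 24.2% of all genes rose and 36.9% fell. RBM15B, the paralogue of RBM15, was at 10.06 FPKM against 8.95 in the input, a log2 change of 0.15 beside 2.26 for RBM15.

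Most AlkB relatives of the demethylases were lower in the immunoprecipitate than in its input. Of 7 genes, ALKBH1 to ALKBH4 and ALKBH6 to ALKBH8, 6 fell and none rose, where 36.9% of all genes fell and 24.2% rose, with a median log2 change of −1.53 against −0.34 for all genes. ALKBH7 fell from 15.8 to 0.946 FPKM and ALKBH4 from 4.96 to 0.599, while ALKBH8, a tRNA methyltransferase, stood at −0.12. ALKBH5 (0.14) lay above all 7, and so did FTO (1.80), which passed the filter only through the immunoprecipitate. ALKBH4, ALKBH6 and ALKBH7 passed it only through the input, since they were under 1 FPKM in the immunoprecipitate. The count that fell and the place of FTO were therefore not read as results about these genes. No relative reached 2-fold against si-NC in si-LY6E-DT or in the library labelled si-HNRNPC, where 2.55% and 21.9% of all genes did.

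Of 10 genes that supply or recycle S-adenosylmethionine, the methyl donor, 9 were tested in si-LY6E-DT. None passed 2-fold, where 2.55% of all genes did. Under the si-HNRNPC label 2 of 10 rose and 1 fell, where 12.4% of all genes rose and 9.44% fell (21.9% in all). After precipitation 2 of 10 were higher and 2 lower, where 24.2% of all genes were higher and 36.9% lower (61.0% in all). MAT2A, the synthetase whose mRNA METTL16 binds, was at 68.2 FPKM with si-NC, 48.9 with si-LY6E-DT, 49.0 under the si-HNRNPC label, 46.4 before precipitation and 54.1 after it. Against si-NC, MAT2A stood at −0.47 on the log2 scale in si-LY6E-DT, where METTL16 stood at −0.62. It stood at −0.47 under the si-HNRNPC label too, where METTL16 stood at −0.15. In the library labelled si-HNRNPC the regulatory subunit MAT2B rose from 9.84 to 21.7 FPKM and the mitochondrial serine enzyme SHMT2 from 21.4 to 58.1. The amino acid transporter SLC7A5 fell there from 94.1 to 43.3 FPKM. MAT2B (21.9 to 65.5 FPKM) and methionine synthase MTR (3.61 to 9.84) rose in the immunoprecipitate. The hydrolase AHCY (24.0 to 4.71) and SHMT2 (38.9 to 10.2) fell.

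Among 12 nuclear partners of the complex none passed 2-fold in si-LY6E-DT, where 2.55% of all genes did. Under the si-HNRNPC label 2 rose and 3 fell, where 12.4% of all genes rose and 9.44% fell (21.9% in all). After precipitation 2 were higher and 4 lower, where 24.2% of all genes were higher and 36.9% lower (61.0% in all). In the library labelled si-HNRNPC, ERH rose from 77.1 to 183 FPKM and the 3′ processing factor NUDT21 from 27.6 to 56.2. CEBPZ, a chromatin protein known to bring METTL3 to promoters, fell from 46.8 to 12.2 FPKM, the export factor FYTTD1 from 8.69 to 2.91 and SPEN, a relative of RBM15, from 9.82 to 4.23. In the immunoprecipitate, NUDT21 rose from 62.5 to 205 FPKM and SMAD2 from 1.08 to 5.76, and the export factors ALYREF (123 to 28.2) and NXF1 (5.29 to 1.90) fell, as did ERH and CEBPZ. The m6A readers had 14 of 15 genes tested. None changed in si-LY6E-DT, 1 rose and 1 fell in the library labelled si-HNRNPC, and 5 rose and 2 fell in the immunoprecipitate, with a median of 0.31 there beside 0.27 for the writers and erasers. With both directions together, those counts lie below the shares over all genes, 2.55%, 21.9% and 61.0% in that order, while in the immunoprecipitate 24.2% of genes rose and 36.9% fell. YTHDF3, a cytoplasmic reader, rose from 1.89 to 7.93 FPKM in the library labelled si-HNRNPC and from 5.89 to 19.1 in the immunoprecipitate. LRPPRC, a mitochondrial RNA-binding protein, fell from 42.8 to 15.0 FPKM under the si-HNRNPC label, close to 13.7 in the RIP input. In the immunoprecipitate YTHDF1 rose from 39.1 to 87.4 FPKM, YTHDC2 from 2.46 to 7.14, IGF2BP3 from 3.05 to 11.6 and FMR1 from 0.935 to 4.88. FMR1 was under 1 FPKM in the input and passed the filter only through the immunoprecipitate, as METTL16 and FTO did. The 5 readers that rose in the immunoprecipitate and both medians include such genes, so they were not read as results. HNRNPA2B1, a nuclear reader, fell from 177 to 24.3 FPKM there and PRRC2A from 41.2 to 12.4.

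The listed genes that rose or fell under the si-HNRNPC label were also set against the RIP input. FYTTD1 (−1.53) and CEBPZ (−1.25) were lower at 2-fold against either control. The others did not reach 2-fold: SHMT2 stood at 0.57, PCIF1 at 0.38 and YTHDF3 at 0.37, with the direction they had against si-NC. ERH (−0.77), NUDT21 (−0.15), MAT2B (−0.02), SLC7A5 (0.66), SPEN (0.57) and LRPPRC (0.12) stood on the other side of 0. AHCY (1.55) passed 2-fold against the RIP input only, as did METTL5, just past it on the lower side, and HNRNPA2B1 (−1.05).

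Likeness over the 5 libraries was measured as the largest absolute difference between profiles of log2(FPKM + 1), each centred on its own mean, among 10334 genes. Closest to METTL3 were APTX (0.05), C15orf39 (0.08) and NR2F6 (0.08). METTL14 was nearest to CBWD3 (0.05), PHF14 (0.10) and WDR19 (0.11), of which CBWD3 has near-identical copies and is uncertain. The genes nearest to FTO were TMEM241 (0.13), TBC1D9 (0.13) and M6PR (0.15), and those nearest to ALKBH5 were NDRG3 (0.10), MFSD13A (0.11) and SHOX2 (0.14). Within the members, METTL14 and ZC3H13 were most alike (0.19), followed by METTL16 and FTO (0.42), and METTL3 and RBM15 were least alike (2.37). METTL3 and METTL14 differed by 0.88.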

How the data were processed

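Per the file headers, the deposited values are FPKM per gene, with 1 file for each of the 5 libraries. Tools listed in the submitters' processing notes are StringTie 1.3.3, HISAT2 2.1.0, cutadapt 1.17 and FastQC 0.11.7, with the build GRCh37 and no settings; strand use and filters are not given in the sources used here. FPKM depends on the library's total, so abundant genes move all others. Low values showed no whole-read steps (largest alignment score 0.322, where 1 would be exact), so depth is unknown and no interval or floor is given. Members were matched by symbol. Of 12497 rows, 12408 matched GENCODE 29 by ID; the transcript used was the APPRIS principal one, then the longest coding sequence. Changes used a pseudocount of 1 and a filter of mean FPKM at least 1, with no test. Named genes were the 10 members, genes of the pathway lists past 2-fold (not printed for si-NC against the RIP input, nor were most calls among cell type markers), HNRNPC and the 3 nearest genes by likeness for 4 members; MAT2A, RBM15B, ALKBH8, CD68, FN1, VIM, ERBB2, EPCAM, GATA3, CAV1, CD44, TOX4 and SOD2 were named besides. The members and lists were chosen with earlier results of these data known. Computation used pandas 2.3.3 and numpy 2.4.6 in Python 3.11.15, with plots by matplotlib 3.10.9, and the change function was tested on simulated data. One marker gene and 1 sequence window are not reported here.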

Additional observations from a re-analysis of the deposited data

How the results depend on the processing

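No paired analysis was possible because each group has 1 library, and no library could be left out. Depth is unknown, so no value has a counting error. A count moved when it changed by more than 1.5 times, and a log2 change of a member when it shifted by 0.58 or more. Members' log2 changes stayed within that bound in 61, 71, 60 and 58 cases (si-LY6E-DT, labelled si-HNRNPC, immunoprecipitate, si-NC against RIP input) and moved in 0, 4, 5 and 2. Cases with a changed filter could not move, since a filter does not alter a member's log2 change. Centring shifted all members alike, by less than that bound. For these settings the cases that stayed are therefore no measure of stability. No change past 2-fold turned its sign. A larger pseudocount shrinks changes of low genes, and a stricter filter leaves fewer genes by construction; other causes were not tested.

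In si-LY6E-DT, 174 genes rose and 93 fell, against 330 and 150 with a pseudocount of 0.1, 42 and 30 with 5, 79 and 59 with a filter of 5 FPKM, 662 and 371 at 1.5-fold and 22 and 16 at 4-fold; METTL16 was the 1 member lower at 1.5-fold. In the library labelled si-HNRNPC, 1275 genes rose and 967 fell, against 618 and 324 with a pseudocount of 5, 2604 and 2131 at 1.5-fold and 176 and 98 at 4-fold. The lower count was 634 with the filter of 5 and 410 against the RIP input. The 1 member higher became 0 at 4-fold and 0 against the RIP input. The 1 member lower became 2 with a pseudocount of 0.1, 3 at 1.5-fold, and 0 with a pseudocount of 5, the filter of 5, 4-fold or the RIP input as control.

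In the immunoprecipitate, 2486 genes rose and 3791 fell, against 1520 and 2238 with a pseudocount of 5 and 956 and 1750 at 4-fold, and 2394 fell with the filter of 5. The 4 members higher became 1 with a pseudocount of 5, 2 with the filter of 5 and 1 at 4-fold. The 1 member lower became 0 with a pseudocount of 5, the filter of 5, centring, quantile normalization, rescaling and 4-fold. In si-NC against the RIP input, 1457 genes were higher and 1068 lower, against 518 and 505 with a pseudocount of 5, 2863 and 2143 at 1.5-fold and 226 and 180 at 4-fold, and 841 were higher with the filter of 5. The 1 member higher became 2 with a pseudocount of 0.1, rescaling or 1.5-fold, and 0 with a pseudocount of 5, the filter of 5, centring, quantile normalization or 4-fold; the 1 lower became 0 at 4-fold.

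With 1 FPKM added, the METTL14 to METTL3 ratio under the si-HNRNPC label went from 0.181 to 0.279. That of ALKBH5 to FTO went from 28.8 to 13.8 (si-NC), 41.9 to 16.7 (si-LY6E-DT), 43.9 to 26.3 (labelled si-HNRNPC) and 169 to 44.4 (RIP input).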
